A study of Rattus norvegicus with 20 samples.

Results

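Krt15, Krt14 and Tp63 mark the basal layer of stratified epithelia, and their expression was followed in cultured rat epithelial cells before and after the cells had lived in mouse skin. Each gene was taken as the probe set that carries its symbol alone in the platform annotation, with the highest mean where a gene has several. All 3 genes were found, each with 1 probe set, out of 14506 symbols on the array: 10747252 for Krt15, 10747278 for Krt14 and 10755035 for Tp63. The donors were Sprague-Dawley rats at postnatal day 200 whose cells all carry a green fluorescent protein transgene (EGFP), and 5 of their epithelia were sampled: trachea, esophagus, oral mucosa, vagina and the hairless epidermis of the footpad. In the groups before transplantation, cells had been cultured on irradiated mouse 3T3-J2 fibroblasts. In the groups after transplantation, such cells had been injected into skin of newborn mice that was then grafted onto nude mice, recovered from the grafts and cultured again on the same feeders. All groups were sorted for EGFP, so mouse feeder cells would be left behind but rat cells of another type would not. The study describes all of these cultures as expressing Tp63.

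Each of the 10 groups had 2 arrays of cultures grown in duplicate, 20 arrays in all. Levels are given on the log2 scale of RMA, on which 1 unit is a doubling, for 29215 probe sets. The correlation between duplicate arrays (Pearson's r, over probe sets) was at least 0.991 in every group. The words rose and fell are kept for changes past both thresholds of the test, an adjusted p under 0.05 by limma and more than 2-fold. The p-values reflect the spread between duplicate cultures and not that between animals or grafts. The level of a whole culture cannot tell fewer cells that express a gene from less RNA in each cell.

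Keratins are the filament proteins of epithelial cells and are made in pairs of an acidic and a basic keratin. Krt14 encodes the acidic keratin that pairs with keratin 5 in dividing basal cells, and mutations in either gene make the epidermis blister. Krt15 encodes another acidic keratin of basal cells and is widely used as a marker of the hair follicle bulge, where stem cells of the follicle reside. Tp63 encodes p63, a transcription factor without which the epidermis, hair follicles and other stratified epithelia do not form. The array gives 1 value for Tp63 and does not tell its isoforms apart.

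The other measured genes of the marker set for basal keratinocytes had group means of at least 11.27 (Itga6), 11.16 (Itgb4) and 9.72 (Col17a1), where array medians lay between 5.31 and 5.55. The table gives no detection calls.

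The 3 genes differed widely in how much they varied. Krt15 spanned 4.84 on the log2 scale between its lowest and highest group, a 28.6-fold range, and its SD over the 10 group means of 1.66 lay at the 99.9th percentile of all probe sets. Tp63 spanned 1.02, a 2.03-fold range, with an SD of 0.34. Krt14 spanned 0.28, a 1.21-fold range, with an SD of 0.09 at the 7.02nd percentile. Between stages, Krt15 passed the test in all 5 tissues, as 0.0137% of all probe sets did. Krt14 and Tp63 passed it in none, as was so for 89.1% of all probe sets. Over the 10 group means, Krt15 correlated with Krt14 at r = −0.14 and with Tp63 at r = −0.19, and Krt14 with Tp63 at r = 0.39. These coefficients describe 10 groups that share tissues and stages.

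**Figure D1:**
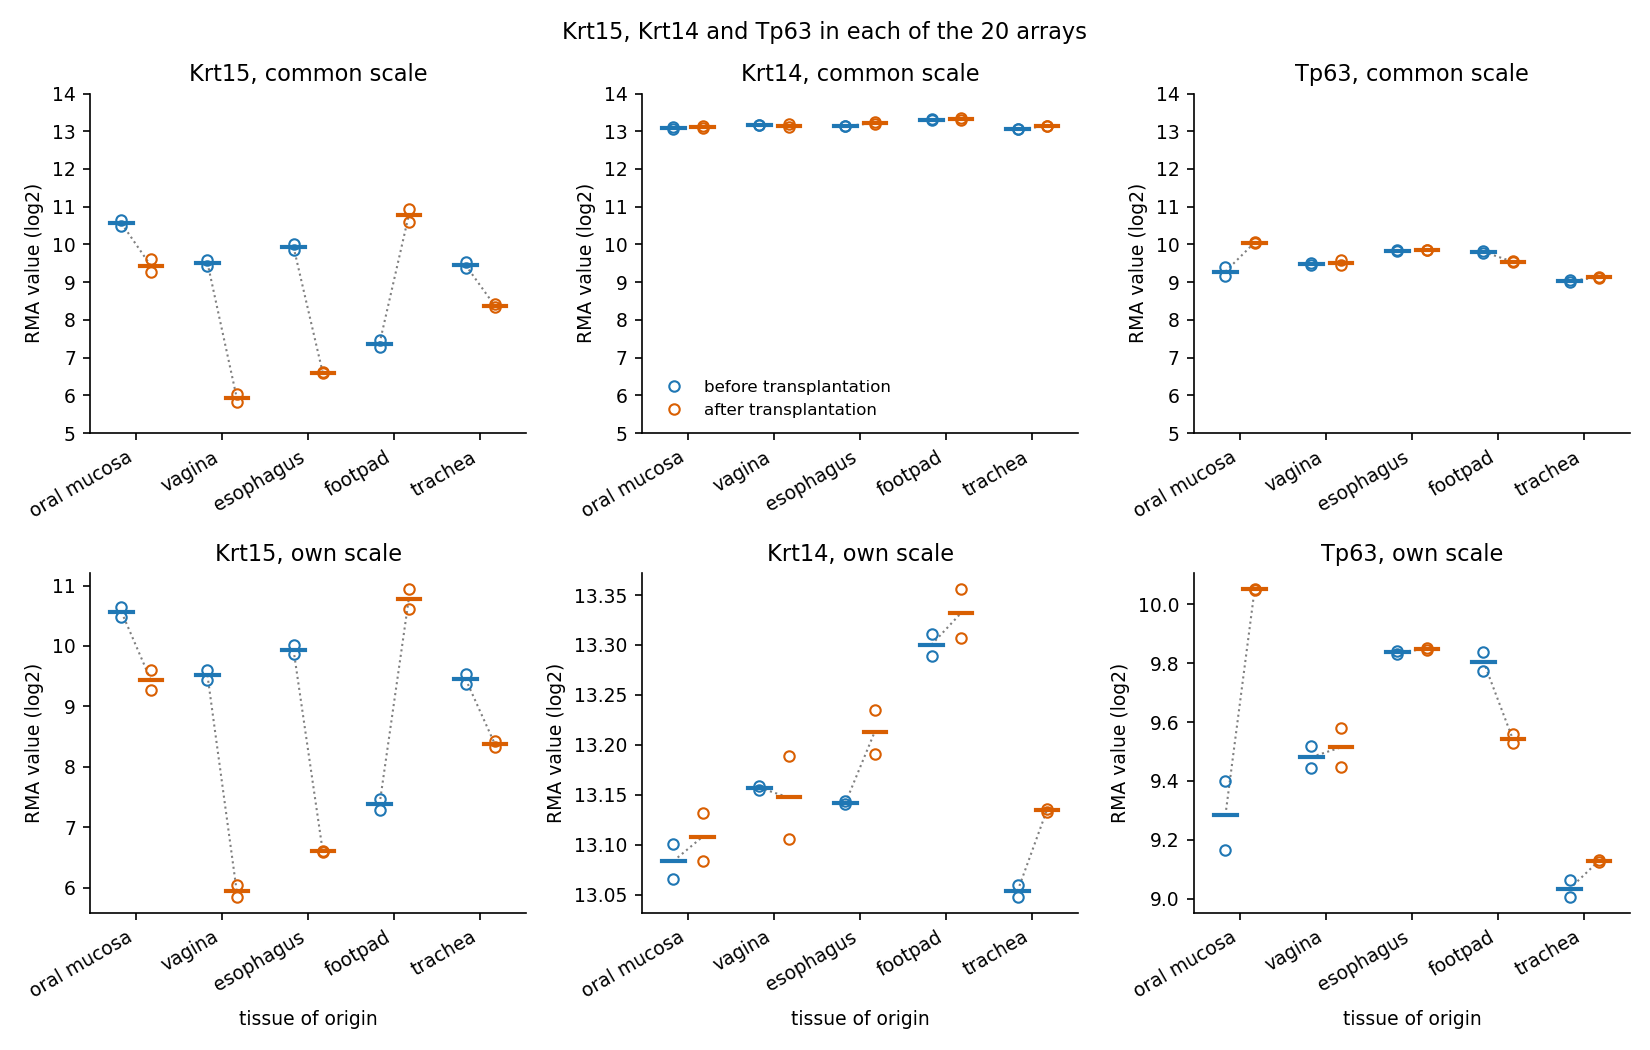
RMA values (log2) of Krt15, Krt14 and Tp63 in each of the 20 arrays, by tissue of origin, with 2 circles for the duplicate arrays of a group, a bar at their mean and a dotted line from before to after transplantation. The upper row has a common scale and the lower row a scale of its own for each gene, and Krt15 fell in 4 tissues and rose in footpad while Krt14 stayed between 13.05 and 13.36.

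Before transplantation Krt15 was high in the cells of 4 tissues and low in footpad. Its values in oral mucosa were 10.48 and 10.64, the highest of any tissue at this stage. Those in esophagus were 10.01 and 9.87, those in vagina 9.43 and 9.60, and those in trachea 9.53 and 9.38. Footpad had 7.47 and 7.28, below every array of the other tissues. The F test among the tissues gave a largest difference of 3.19 (oral mucosa against footpad, limma adjusted p = 6.55e-09), and 9.05% of all probe sets passed that test. In the order oral mucosa, esophagus, vagina, trachea, footpad, the neighbours were set apart by the 95% interval of their difference except for vagina and trachea, which differed by 0.06 with an interval of −0.24 to 0.36.

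After transplantation the order of Krt15 was a different one. Footpad cells now had the highest values of the stage, 10.60 and 10.95, the second of them the highest of all 20 arrays. Oral mucosa followed with 9.27 and 9.61 and trachea with 8.34 and 8.42. Esophagus had 6.59 and 6.61, and vagina had 6.04 and 5.84, the lowest of all 20 arrays. Footpad thus went from last to first, and no tissue of this stage overlapped with another. The largest difference, footpad against vagina, was 4.84 (limma adjusted p = 7.64e-11), where 11.9% of all probe sets passed the F test. Every pair of neighbours in this order was set apart by its interval, the closest being esophagus and vagina at 0.66 (0.36 to 0.96).

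Within tissues, Krt15 fell most in vagina and esophagus. In vagina it fell by 3.57 ± 0.14 (SE), or 11.9-fold, from 9.51 ± 0.12 to 5.94 ± 0.14 (SD, 2 arrays per group, limma adjusted p = 1.06e-09), and 1.68% of all probe sets fell there. In esophagus it fell by 3.34 ± 0.14, or 10.1-fold, from 9.94 ± 0.10 to 6.60 ± 0.01 (limma adjusted p = 1.02e-08), against 0.558% of all probe sets. Ranked by the size of the change in either direction, Krt15 was the probe set of rank 4 in esophagus and of rank 13 in vagina. The changes in these 2 tissues differed by 0.23, with a 95% interval of −0.19 to 0.66.

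In oral mucosa and trachea the falls of Krt15 were smaller. In oral mucosa it fell by 1.12 ± 0.14, or 2.18-fold, from 10.56 ± 0.11 to 9.44 ± 0.24 (limma adjusted p = 3.79e-05), against 2.15% of all probe sets. In trachea it fell by 1.08 ± 0.14, or 2.11-fold, from 9.45 ± 0.11 to 8.38 ± 0.06 (limma adjusted p = 0.000162), against 0.883%. Both falls lay just past the 2-fold threshold. Without the first oral mucosa array after transplantation the change was −0.96 (limma adjusted p = 0.00106), and without the first trachea array before transplantation it was −0.999 (limma adjusted p = 0.00349), so that neither then passed on fold. The 2 changes differed by 0.05, with an interval of −0.37 to 0.47.

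In footpad Krt15 went the other way. It rose by 3.40 ± 0.14, or 10.6-fold, from 7.38 ± 0.13 to 10.78 ± 0.24 (limma adjusted p = 5.01e-10). Footpad was the tissue with the most changes, as 4.28% of all probe sets rose and 2.64% fell there, and Krt15 was of rank 33 among those that rose.

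The change of Krt15 differed between tissues by up to 6.97, between footpad and vagina (limma F test, adjusted p = 2.03e-10), and 18.5% of all probe sets passed this test. Set against the mean change of the other 4 tissues, footpad was higher by 5.68 ± 0.15 (limma adjusted p = 2.41e-11), vagina lower, at −3.04 ± 0.15 (limma adjusted p = 3.39e-08), and esophagus lower, at −2.75 ± 0.15 (limma adjusted p = 2.97e-07). The shares of all probe sets that passed were 8.23% in footpad, 1.66% in vagina and 1.35% in esophagus. Oral mucosa, at 0.02 (−0.31 to 0.36), and trachea, at 0.08 (−0.25 to 0.42), did not pass this test, which 4.66% and 2.43% of all probe sets passed. For these tissues the mean of the other 4 holds changes of opposite direction. The change in oral mucosa lay 2.45 above that in vagina, 2.22 above that in esophagus and 4.53 below that in footpad. That in trachea lay 2.50 and 2.26 above and 4.48 below the same tissues. None of these intervals held 0. Without the footpad groups, a comparison added after seeing the data, the largest difference of Krt15 was 2.50 (limma F test, adjusted p = 3.5e-07).

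The mean change of Krt15 over the 5 tissues was −1.14 ± 0.97, with an interval of −3.46 to 1.18 (limma on group means, adjusted p = 0.712). In that test 0 of all probe sets (0%) passed, and 3273 had an unadjusted p under 0.05. Few probe sets passed the test in all 5 tissues, namely 4 of 29215 (0.0137%), and each of them held both directions. The others were Tmprss11f, Gstm1 and Nppb, which were named after their values had been seen. Tmprss11f fell in oral mucosa, vagina and esophagus and rose in footpad as Krt15 did, but rose in trachea.

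**Figure D2:**
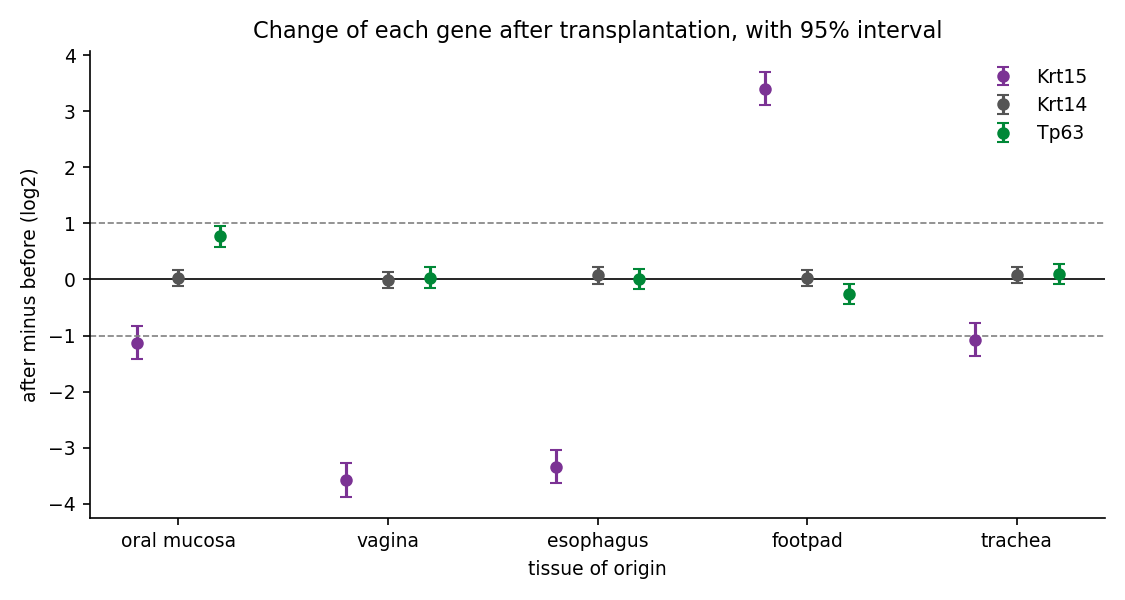
After minus before (log2) for Krt15, Krt14 and Tp63 in each tissue of origin, with the 95% interval of limma's fit and dashed lines at the 2-fold threshold. Krt15 lies beyond the lines in all 5 tissues, at −3.57 in vagina and 3.40 in footpad at the extremes, and the changes of Krt14 lie between −0.01 and 0.08 (oral mucosa at −0.11 with arrays centered on their median).

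Krt14 was close to the top of the scale in every array. Its 20 values ran from 13.05 to 13.36 with a median of 13.14, where the highest value of any probe set was 14.01. It stood between rank 16 and rank 68 from the top of its array. Whether a probe set this bright still responds in proportion to its RNA was not tested.

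Between stages Krt14 differed by 0.02 in oral mucosa, −0.01 in vagina, 0.07 in esophagus, 0.03 in footpad and 0.08 in trachea, and the sign in oral mucosa turned (−0.11) when array medians were equalized. The 95% intervals of the 5 changes lay within −0.16 and 0.23, and limma's adjusted p ran from 0.523 to 0.941. The changes differed between tissues by at most 0.09 (limma F test, adjusted p = 0.905), and the mean change was 0.04 ± 0.07 (adjusted p = 0.861).

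Footpad had the highest Krt14 at both stages, with 13.29 and 13.31 before and 13.31 and 13.36 after transplantation. Trachea was lowest before, at 13.06 and 13.05, and oral mucosa lowest after, at 13.08 and 13.13. The largest differences among tissues were 0.25 before (limma F test, adjusted p = 0.0636) and 0.22 after (adjusted p = 0.0818), which did not pass the test. No neighbours in the order of Krt14 were set apart by the interval of their difference at either stage.

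Tp63 was measured between 9.004 and 10.05 in the 20 arrays. Before transplantation esophagus (9.83 and 9.84) and footpad (9.77 and 9.84) had the highest values and overlapped. Vagina had 9.52 and 9.45, oral mucosa 9.40 and 9.17, and trachea 9.06 and 9.004. Trachea thus had the lowest values, and those of vagina and oral mucosa lay between. The largest difference was 0.80, between esophagus and trachea (limma F test, adjusted p = 1.3e-05) (1.75-fold), and so under the fold threshold. Neighbours in this order were set apart by their intervals except for esophagus and footpad, which differed by 0.03 (−0.15 to 0.21).

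After transplantation oral mucosa had the highest Tp63, with 10.05 in both arrays. Esophagus had 9.85 in both, footpad 9.56 and 9.53, vagina 9.45 and 9.58, and trachea 9.13 in both. Oral mucosa thus moved from 4th to first place, and trachea stayed last. The largest difference was 0.92, or 1.90-fold, between oral mucosa and trachea (limma F test, adjusted p = 6.82e-06). Footpad and vagina were not set apart (0.03, −0.15 to 0.21), and the other neighbours were.

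Within tissues, the largest change of Tp63 was that of oral mucosa. It was 0.77 ± 0.08 higher after transplantation, 1.70-fold, from 9.28 ± 0.17 to 10.05 ± 0.0031 (limma adjusted p = 1.37e-05), which did not reach 2-fold. In footpad it was lower, at −0.26 ± 0.08 (limma adjusted p = 0.0288), or 1.20-fold. The changes in vagina (0.03, −0.15 to 0.22), esophagus (0.01, −0.17 to 0.19) and trachea (0.10, −0.09 to 0.28) had intervals that held 0. With each array centered on its median, which moved every change in oral mucosa by −0.14, Tp63 changed by 0.63 there (limma adjusted p = 0.000745) and by −0.24 in footpad (limma adjusted p = 0.137).

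The changes of Tp63 differed between tissues by up to 1.03, between oral mucosa and footpad (limma F test, adjusted p = 0.000112), just past the threshold of 1 on the log2 scale. It fell below that threshold without the second oral mucosa array before transplantation (0.91, adjusted p = 0.000449), without the second footpad array before transplantation (0.999, adjusted p = 0.000422), with array medians equalized (0.87, adjusted p = 0.00464) or without the footpad groups (0.76, adjusted p = 7e-04, a comparison added after seeing the data). Against the mean of the other 4 tissues, Tp63 changed by 0.80 ± 0.09 more in oral mucosa (limma adjusted p = 2.62e-05) and by −0.49 ± 0.09 in footpad (limma adjusted p = 0.00105), both under 2-fold. The mean change over the 5 tissues was 0.13 ± 0.15 (adjusted p = 0.797).

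A list of basal cell genes, most of them of the attachment to the basement membrane, was read beside the members. Pdpn and Ngfr, among its other genes, encode surface proteins outside that attachment. Of 15 listed genes, 10 were measured with a probe set of their own. Keratin 5, the partner of Krt14, shares its probe set with another gene here and is not given. Only in footpad did any of the 10 pass the test: Pdpn, which encodes podoplanin, fell from 11.82 ± 0.05 to 9.67 ± 0.14 (−2.15, limma adjusted p = 2.9e-10), and Ngfr, the low-affinity nerve growth factor receptor, rose from 5.75 ± 0.17 to 7.98 ± 0.10 (2.23, limma adjusted p = 9.99e-09). No measured integrin or laminin gene of the list, nor Col17a1 or Plec, passed in any tissue. Over the 5 tissues, 4% of the gene and tissue pairs of this list passed, against 3.05% for all probe sets.

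Smaller differences of the genes of this list ran downward in vagina and footpad. With the adjusted p alone and no fold threshold, 7 of the 10 were lower in vagina and 8 in footpad, where 10.7% and 14.9% of all probe sets were. In trachea 4 were lower and 1 higher, where 8.84% of all probe sets were lower and 6.25% higher. In esophagus 2 were lower and 1 higher, where 6.57% of all probe sets were lower and 6.7% higher. Oral mucosa had 2 lower (11% of all probe sets) and 3 higher (9.35%), and the median change of the list there was 0.12. In vagina none was higher at that adjusted p, and in footpad Ngfr was, where 9.17% and 16.6% of all probe sets were higher. Itgb4, the integrin chain of hemidesmosomes, was at −0.53 in vagina (limma adjusted p = 0.000101), −0.75 in footpad (adjusted p = 1.35e-06), −0.33 in trachea (adjusted p = 0.00527), −0.29 in esophagus (adjusted p = 0.0135) and −0.11 in oral mucosa (adjusted p = 0.276). Its partner Itga6 was at −0.38 in vagina (limma adjusted p = 0.0035), −0.58 in footpad (adjusted p = 4.95e-05), −0.40 in trachea (adjusted p = 0.00356), −0.16 in esophagus (adjusted p = 0.241) and 0.21 in oral mucosa (adjusted p = 0.0795). The median change of the list was −0.46 in vagina and −0.56 in footpad, against 0.06 and −0.03 for all probe sets. Vagina and footpad are tissues in which Krt15 moved in opposite directions.

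Of 17 listed target genes of p63, 13 were measured, and 6.15% of their gene and tissue pairs passed the test, against 3.05% for all probe sets. In oral mucosa, where Tp63 changed most, Cdkn1a fell (−1.16, limma adjusted p = 8.13e-07), as 2.15% of all probe sets did while 1.5% rose. Cdkn1a encodes the cell cycle inhibitor p21, and the part of Tp63 in its fall was not tested. In trachea Dsc3, a desmosomal cadherin, rose by 1.10 from 10.07 to 11.18 (adjusted p = 6.22e-07), as 0.496% of all probe sets did. In footpad Hes1, a repressor downstream of Notch, rose by 1.30 (adjusted p = 4.25e-07), and the Notch ligand Jag1 fell (−1.06, adjusted p = 3.9e-07), where 4.28% of all probe sets rose and 2.64% fell. None of the 13 passed the test in vagina or esophagus, where Tp63 differed by 0.03 and 0.01. With 0.534% of all probe sets higher and 1.68% lower in vagina, and 0.517% and 0.558% in esophagus, a count of 0 among 13 is near the background.

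Perp, a p63 target of desmosomes, differed by −0.16 to 0.22 and did not pass in any tissue. The Notch ligand Jag2 lay between −0.33 in esophagus and 0.05 in footpad. Fgfr2, the epithelial receptor for keratinocyte growth factor, differed by 0.66 in oral mucosa (limma adjusted p = 0.000686), 0.60 in esophagus (adjusted p = 0.00278), −0.20 in vagina, −0.77 in footpad (adjusted p = 9.05e-05) and −0.73 in trachea (adjusted p = 0.000691). It was higher in oral mucosa and lower in footpad, as Tp63 was, but Tp63 differed by only 0.01 in esophagus and 0.10 in trachea. None of the changes of Fgfr2 reached 2-fold.

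Of 4 listed genes of the p53 family and its ubiquitin ligases, 3 were measured. Of their gene and tissue pairs 13.3% passed, against 3.05% for all probe sets. Tp73, which encodes the related factor p73, rose in trachea from 5.73 ± 0.07 to 6.91 ± 0.07 (1.18, limma adjusted p = 1.06e-05), as 0.496% of all probe sets did. Mdm2, which encodes a ubiquitin ligase, fell in oral mucosa from 11.32 ± 0.03 to 9.70 ± 0.11 (−1.62, adjusted p = 1.55e-08), as 2.15% of all probe sets did. Itch passed in no tissue. Mdm2 and Cdkn1a, a gene of the p63 target list, both fell in oral mucosa, and in none of the other 4 tissues did either pass the test. A link between these falls was not tested.

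**Figure D3:**
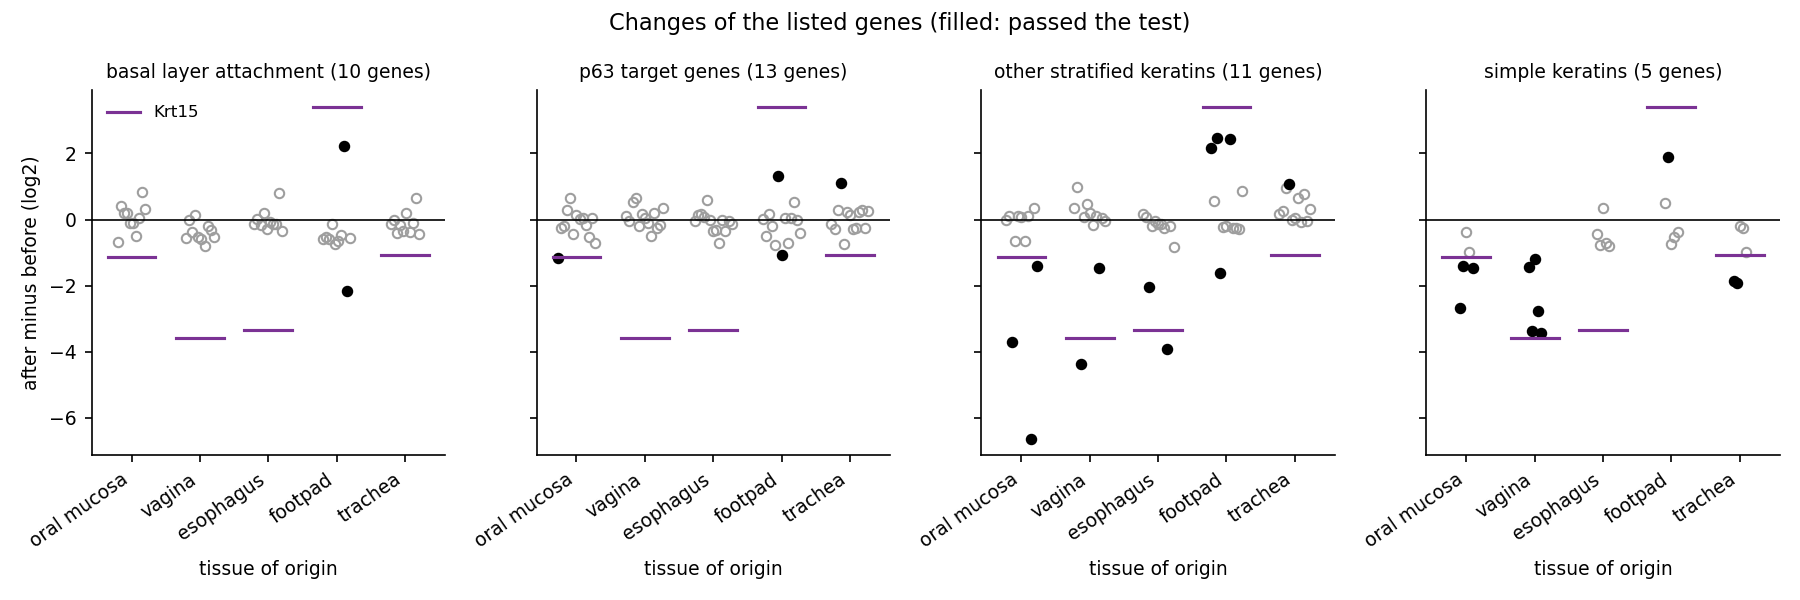
After minus before (log2) of the genes of 4 lists in each tissue of origin, with filled points for genes that passed the test and a line at the change of Krt15. No gene of the attachment list passed the test outside footpad, and no p63 target passed in vagina or esophagus. Outside footpad, 0.496% to 2.15% of all probe sets passed per direction and tissue. Krt15 changed by −3.57 in vagina and −3.34 in esophagus, and all 5 simple keratins fell in vagina.

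Other keratins were read in the same way. Of 15 listed keratins of stratified epithelia, 11 were measured and 21.8% of their gene and tissue pairs passed, against 3.05% for all probe sets. Krt17, found in basal cells of appendages and in activated keratinocytes, had group means from 12.48 to 13.02, with differences of 0.12, 0.48, −0.05, −0.22 and −0.01 in oral mucosa, vagina, esophagus, footpad and trachea, none of them 2-fold. Krt16, a keratin of activated keratinocytes, fell in footpad (−1.61, limma adjusted p = 1.6e-07) and rose in trachea by 1.07 (adjusted p = 5.71e-05), opposite to Krt15 in both. Krt4, a keratin of the suprabasal layers of mucosae, fell in oral mucosa (−6.63), vagina (−1.47) and esophagus (−3.93), and Krt80 fell in oral mucosa. In footpad Krt1, a keratin of the suprabasal epidermis, rose by 2.17 and Krt23 and Krt13 rose as well. All 5 measured keratins of simple epithelia fell in vagina, with Krt8 at −3.44 and Krt7 at −2.77. Krt8, Krt18 and Krt19 fell in oral mucosa, Krt18 and Krt19 fell in trachea, and 44% of the pairs of this list passed, again against 3.05%.

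Krt15 and Krt14 lie in the same cluster of acidic keratin genes, and the RefSeq gene order of the GRCr8 assembly places Krt13 and Krt19 directly beside Krt15. The neighbours were looked up after the values had been seen. Krt13, a suprabasal keratin of mucosae, fell in oral mucosa (−3.69), vagina (−4.36) and esophagus (−2.05) and rose in footpad by 2.48. In trachea Krt13 was at 0.96 and did not pass, where Krt15 fell. Krt19, a keratin of simple epithelia, fell in oral mucosa (−1.41), vagina (−3.36) and trachea (−1.91) and rose in footpad by 1.90. In esophagus Krt19 was at −0.78 (limma adjusted p = 0.00584) and did not pass on fold. Beyond these, Krt36, Krt9 and Ka11 differed by −0.35 to 0.50 and did not pass in any tissue, and Krt14 lies 3 genes from Krt15. Probe sequences were not used here, so binding of a related keratin transcript to a probe set was not tested.

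**Figure D4:**
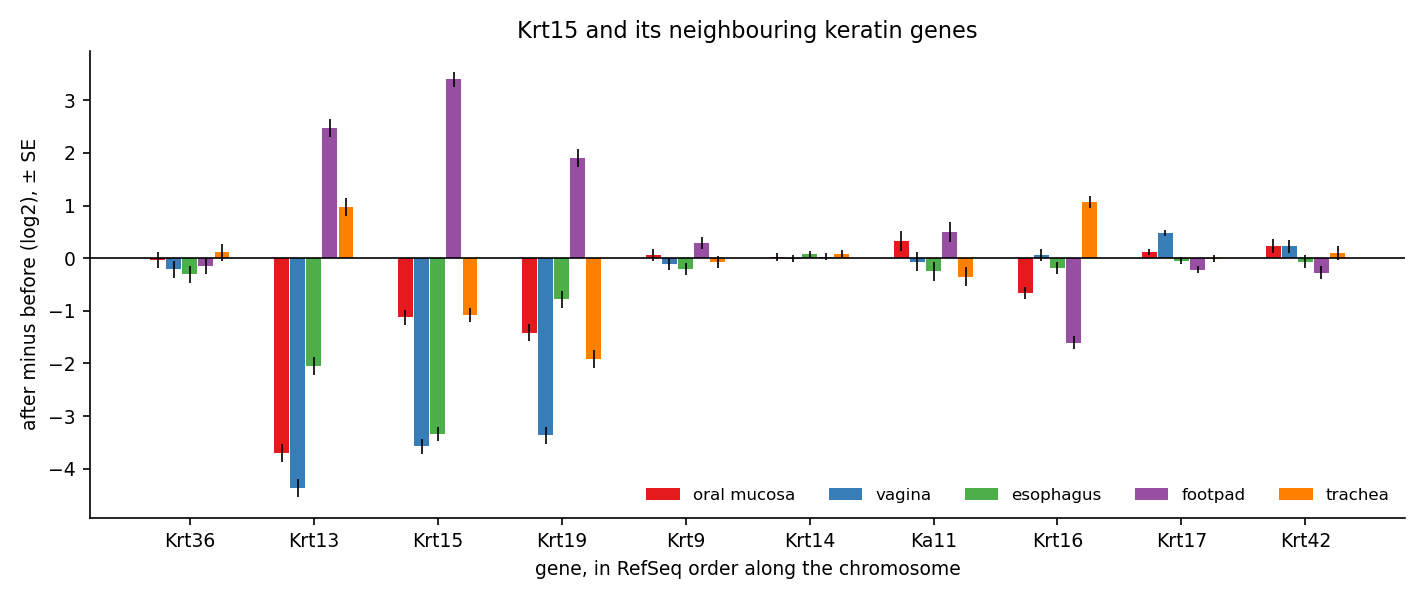
After minus before (log2, bars with SE) for Krt15 and its neighbouring genes in RefSeq order along the chromosome, with 1 bar per tissue of origin. Krt13, Krt15 and Krt19 fell in vagina and rose in footpad, and the bars of Krt14 lie between −0.01 and 0.08.

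Since Krt15 also marks the hair follicle bulge, other bulge genes were read beside it, of which Sox9 and others have no probe set of their own here. Of 10 listed genes, 5 were measured. Cd200, a surface protein of bulge cells, fell in oral mucosa (−1.44, limma adjusted p = 0.000315) and vagina (−3.89, adjusted p = 4.99e-08) and rose in footpad by 2.14 (adjusted p = 3.96e-06). Lhx2, a transcription factor of follicle stem cells, rose in oral mucosa by 1.09 (adjusted p = 0.00257), in vagina by 1.66 (adjusted p = 0.00012) and in footpad by 1.23 (adjusted p = 0.000529). Its arrays in oral mucosa before transplantation differed (5.69 ± 0.63), and its change there fell short of 2-fold without the first of them (0.65, adjusted p = 0.027) and with array medians equalized (0.96, adjusted p = 0.00196). Cd200 moved as Krt15 did in these 3 tissues, and Lhx2 did so in footpad alone. In esophagus and trachea, where Krt15 also fell, neither passed. Cd200 was at −0.14 and −0.47 there (limma adjusted p = 0.8 and 0.201), and Lhx2 at −0.16 and −0.04. Cd34, Lgr5 and Tcf7l1 did not pass in any tissue, and 24% of the pairs of this list passed, against 3.05% for all probe sets.

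The genes whose group means were most like those of Krt15, by Pearson's r over the 10 groups among 3750 genes, were Tead3 (0.954), Irf2bpl (0.951), Dcaf8 (0.948), Bsdc1 (0.942) and Abtb2 (0.940). Their ranges were narrower than that of Krt15, with Irf2bpl the widest at 7.62 to 9.29. Irf2bpl rose in footpad by 1.32 (limma adjusted p = 1.3e-07), and the other changes of these 5 genes did not reach the test. Most like Krt14 were Klf4 (0.915), Krt10 (0.865), Krt1 (0.846), Tbx15 (0.846) and Serpine2 (0.821), among which Krt1 ran from 4.18 to 8.73 while Krt14 moved by 0.28. Most like Tp63 were Syne3 (0.927), Ahcyl2 (0.864), Pcsk5 (0.856), Fam83b (0.827) and Chst8 (0.823), of which Syne3 rose in oral mucosa by 1.26 (adjusted p = 7.86e-06) and Pcsk5 by 1.28 (adjusted p = 0.000245), or 0.98 and under 2-fold without the first oral mucosa array before transplantation. In all, 28 genes reached an r over 0.9 with Krt15, 1 with Krt14 and 1 with Tp63. The groups share tissues, so these r values are descriptions.

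Markers of other cell types were read in the same arrays. Of 14 fibroblast markers 13 were measured, and 38.5% of their gene and tissue pairs passed the test, against 3.05% for all probe sets. Of all probe sets, 1.68% fell in vagina, 2.64% in footpad and 0.883% in trachea. In oral mucosa 1.5% of them rose, and in esophagus 0.517% rose and 0.558% fell. In vagina 8 of them fell, among them Sparc (−3.47) and Col3a1 (−2.63), and their summed linear level went from 6390 to 6750 before to 3690 to 3730 after. In footpad 8 fell, with Dcn at −3.43, and the sum went from 7000 to 7090 down to 4920 to 5110. In trachea 7 fell, and the sum went from 7610 to 8260 down to 4410 to 4770. Fn1 was the highest of the markers in vagina and trachea at both stages and weighs heavily in these sums. It changed by −0.02 in vagina, 0.82 in footpad and −0.41 in trachea, where Col1a1 changed by −2.39, −1.88 and −2.46. Krt15 fell by 3.57 in vagina and 1.08 in trachea and rose by 3.40 in footpad. It fell by 1.12 in oral mucosa and by 3.34 in esophagus. The part of the fibroblast markers in these changes was not tested.

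In oral mucosa Vim, which encodes vimentin, rose by 5.10 and Tagln by 1.27, and the sum of the fibroblast markers went from 4510 to 4690 up to 7070 to 7580. The other 11 markers did not pass there, with Col1a1 at 0.26, Col3a1 at 0.32, Dcn at 0.12 and Thy1 at −0.57, and Vim alone went from 6.48 to 11.58. In esophagus none passed, and the sum was 3650 to 3750 before and 3130 to 3160 after. The part of these markers in the changes of Krt15 and Tp63 was not tested. Dcn, which encodes decorin, had its highest group mean of 7.16 in footpad before transplantation. After transplantation its group means ran from 3.74 to 4.197, and the lowest 40% of probe sets have means under 4.77. Of the 13 markers, 2 to 4 lay under that level in the groups after transplantation. Col1a1 stayed above it, with group means of 6.68 to 7.19 at that stage.

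Of 4 airway, 7 leukocyte, 4 endothelial and 4 melanocyte markers measured, those that passed the test were Cd68, which fell in oral mucosa (−1.96) and vagina (−1.07, or −0.998 and under 2-fold without the first vagina array after transplantation), and Mitf, which rose in footpad by 1.87. The summed level of the leukocyte markers ran from 322 to 339 in oral mucosa before to 145 to 171 after, and from 177 to 188 in vagina before to 137 to 138 after, and none of the other leukocyte markers passed. That of the melanocyte markers ran from 63.4 to 71.7 in footpad before to 136 to 158 after, with Mitf from 4.94 to 6.81 and the other 3 markers Tyr, Mlana and Tyrp1 at −0.02, −0.12 and −0.20. Of the leukocyte pairs of gene and tissue 5.71% passed and of the melanocyte pairs 5%, against 3.05% for all probe sets. The part of these markers in the changes of the 3 genes was not tested either.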

How the data were processed

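The values are the log2 values deposited by the authors, made with RMA in Affymetrix Expression Console (versions not given in the sources used here) from Rat Gene ST arrays. RMA corrects background, equalizes the distributions of the arrays and summarizes the probes of a set. The table holds 29215 probe sets and 20 arrays with medians of 5.31 to 5.55, without detection calls. The number of arrays limits the precision. Groups came from the labels' tissue and stage. Roman numerals in the sample titles, for which the labels give no key, played no part. If they mark passages, as the study writes them, stage and passage cannot be told apart wherever they differ, which is every tissue but vagina.

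Probe sets with 1 symbol in the platform annotation (15310) were named, 323 with several and 13582 without were not. Names were looked up in RefSeq's GRCr8 gene table, which held 15279 of them. No coordinates are printed, because the genome build of the platform annotation was not stated.

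All 10 groups were fitted together with limma 3.58.1 (statmod 1.5.0, R 4.3.3), with 10 residual and 3.64 prior degrees of freedom and Benjamini-Hochberg adjustment over all probe sets within each comparison. The thresholds, adjusted p under 0.05 and fold over 2, are the study's. F tests counted a probe set where the largest difference was over 1. For the mean change, limma was run on group means (10) with a term for tissue. The scripts were tested on simulated data.

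The 3 genes and the 11 lists of 105 genes (79 measured) were chosen with earlier results of these data known. Named were the genes of each list that passed the test in the tissue described, up to 5, together with Krt17, Krt16, Perp, Fgfr2 and Jag2, and the 5 genes most like each member among those with an SD of at least 0.3 over the group means. Itga6 and Itgb4, basal markers, were given in all 5 tissues after their values had been seen. Alternatives were array centering, a filter on the lowest 40% of probe sets, a trended robust variance, a replicate block, array weights, fits on 1 tissue, joint adjustment and leaving out each array.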

Additional observations from a re-analysis of the deposited data

Results flagged for a closer look

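Krt15 and Tp63 changed differently in the 5 tissues by the test of the difference itself. The largest difference of change between tissues was 6.97 on the log2 scale for Krt15 (footpad against vagina, limma F test, adjusted p = 2.03e-10) and 1.03 for Tp63 (oral mucosa against footpad, adjusted p = 0.000112). For Tp63 this call was lost with array centering (0.87), without either of 2 single arrays (0.91 and 0.999) and without footpad (0.76), while that of Krt15 held under each of these. The change of Krt15 minus the mean change of the other 4 tissues was 5.68 in footpad, −3.04 in vagina and −2.75 in esophagus, each past the test by limma. Both duplicate arrays of each group showed these directions. With 2 arrays in a group, no array could be tested for standing apart from its group.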

How the results depend on the processing

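The calls of Krt15 in all 5 tissues held under array centering, the filter on low probe sets, the trended robust variance, array weights, the fit on 1 tissue and the joint adjustment. Leaving out 1 array gave −1.29 to −0.96 in oral mucosa and −1.15 to −0.999 in trachea, each with the fold threshold missed once, and −3.68 to −3.47 in vagina, −3.41 to −3.27 in esophagus and 3.23 to 3.57 in footpad. The largest difference of the change of Tp63 fell under the fold threshold with array centering (0.87) and without footpad (0.76, chosen after seeing the data), and ran from 0.91 to 1.15 with 1 array left out. Values near 0 that changed sign with array centering were the change of Krt14 in oral mucosa (−0.11), its mean change (−0.00068), its change against the other 4 tissues in footpad (0.0701), that of Krt15 in oral mucosa (−0.10) and the change of Tp63 in vagina (−0.0351). Those that changed sign with 1 array left out were the change of Krt14 in vagina (−0.0511 to 0.0318) and of Tp63 in vagina (−0.0334 to 0.0984), and the changes against the other 4 tissues of Krt15 in oral mucosa (−0.14 to 0.19) and of Krt14 in oral mucosa (−0.0429 to 0.0048) and footpad (−0.035 to 0.0146). None of these passed the test under any setting. Array centering moved the share of calls in oral mucosa that were higher from 41.1% to 29.7%. The differences between duplicates correlated between pairs of groups at −0.409 to 0.399, with a median of 0.0018. Of 45 pairs, 3 were over 0.1, so the duplicate numbers showed no common pairing. The strongest correlations in either direction were not followed up. With the replicate number as a block, 1064, 646, 313, 2019 and 404 probe sets passed in oral mucosa, vagina, esophagus, footpad and trachea, against 1066, 646, 314, 2022 and 403 without it, and no call of the 3 genes changed. Dropping the fold threshold raised the calls of the attachment list from 1 higher and 1 lower to 6 and 23. At that setting 6.25% to 16.6% of all probe sets were higher and 6.57% to 14.9% lower, by tissue. Other probe sets of the 3 genes could not be tried, as each has 1. The causes were not tested.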
